A study of Homo sapiens with 6 samples.

Results

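Autophagy delivers cytoplasm and organelles to the lysosome for breakdown, and 46 genes that act along this route were followed in BT549 cells treated with AS1842856. The genes were listed by name and function, though with earlier results of these data known, and cover the autophagy core, mitophagy, the MiT/TFE transcription factors and the lysosome. They are 46 of the 58735 genes in the count table, all 46 were found there by symbol, and all 46 passed the filter on low counts. The cells were of 1 line, BT549, which was established from a breast tumour of basal-like type and is grown in culture. The compound AS1842856 inhibits FOXO1 by keeping this transcription factor from its DNA sites. Total RNA was sequenced from 3 libraries of cells given DMSO, the solvent, and 3 libraries of cells given AS1842856 for 48 h. Its dose is 200 nM by the sample labels but 1 μM by the methods text, and the discrepancy could not be settled. No gene was deleted or introduced in either group, and the compound and its solvent were the only agents that the labels name.

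During autophagy, the ULK kinase complex and a class III PI3-kinase start a double membrane, lipid carriers extend it, and a ubiquitin-like system attaches ATG8 proteins to it. Cargo receptors tie the cargo to ATG8, and the closed autophagosome fuses with the lysosome, whose acid hydrolases degrade the content. TFEB, TFE3 and MITF, the MiT/TFE factors, bind E-box elements in many lysosomal and autophagy promoters, and FOXO factors are known activators of several autophagy genes in muscle and other tissues.

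Levels are given as CPM, counts scaled to a common library size by TMM, and groups were compared by edgeR's quasi-likelihood test with Benjamini-Hochberg adjustment over all genes tested. "Called" means an adjusted p under 0.05, and a log2 fold change is AS1842856 over DMSO with its standard error (SE), n = 3 libraries per group. Totals ran from 15289500 to 22981832 counts per library, and the members took between 0.621% and 0.653% of them. Of 8 mesenchymal markers of such a line, 8 were tested, with summed levels of 5041 to 5179 CPM in DMSO and 4284 to 4354 with AS1842856, though FN1 was 2.18-fold higher and AXL was at 31.9% of its DMSO level. Of 8 luminal markers, 4 were tested, their sum was 125.3 to 128.7 CPM in DMSO and 65.3 to 74.2 with AS1842856, and ESR1 and CDH1 had at most 1 count in any library. Within that sum, KRT8 and KRT18 fell to 10.1% and 10.2% of DMSO, and GATA3 rose (log2 fold change 0.28). Of 7 leukocyte markers, 2 were tested, and the sum was 1.40 to 2.87 CPM in DMSO and 4.26 to 5.22 with AS1842856. TYROBP and AIF1 were at 0 in all 6 libraries. PTPRC was called higher (log2 fold change 1.48, SE 0.27, adjusted p = 4.99e-07, edgeR), and CSF1R was not called (0.60). The counts of PTPRC were low, at 26, 24 and 13 in DMSO and 44, 74 and 64 with AS1842856. These marker levels moved with treatment, and their part in the changes of the members was not tested. In RNA from whole cultures, fewer cells that express a gene and less of its RNA per cell cannot be told apart.

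Of the 46 members, 24 were lower and 6 were higher with AS1842856, and 16 were not called. Over all 14338 genes tested, 56.0% were called, 28.4% lower and 27.6% higher, so the 65.2% of members called in either direction was not far from the share of all genes, while the lower calls alone took 52.2% of the members. The groups of libraries did not overlap in 31 members (59.9% of all genes), with 25 lower (30.3% of all genes) and 6 higher (29.5% of all genes). The members' median log2 fold change was -0.14, beside 0.00 for all genes. A log2 fold change of 0.5 or more in size was called in 13 members (23.4% of all genes), 12 lower and 1 higher. A size of 1 or more was reached by 5 called members (10.6% of all genes), with BNIP3L, MITF, GABARAPL1 and NBR1 lower and MCOLN1 higher. Outside the lysosome itself, 21 of 39 members were lower and 2 were higher, with a median of -0.17, whereas the 7 lysosomal members were split into 4 higher and 3 lower.

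**Figure D1:**
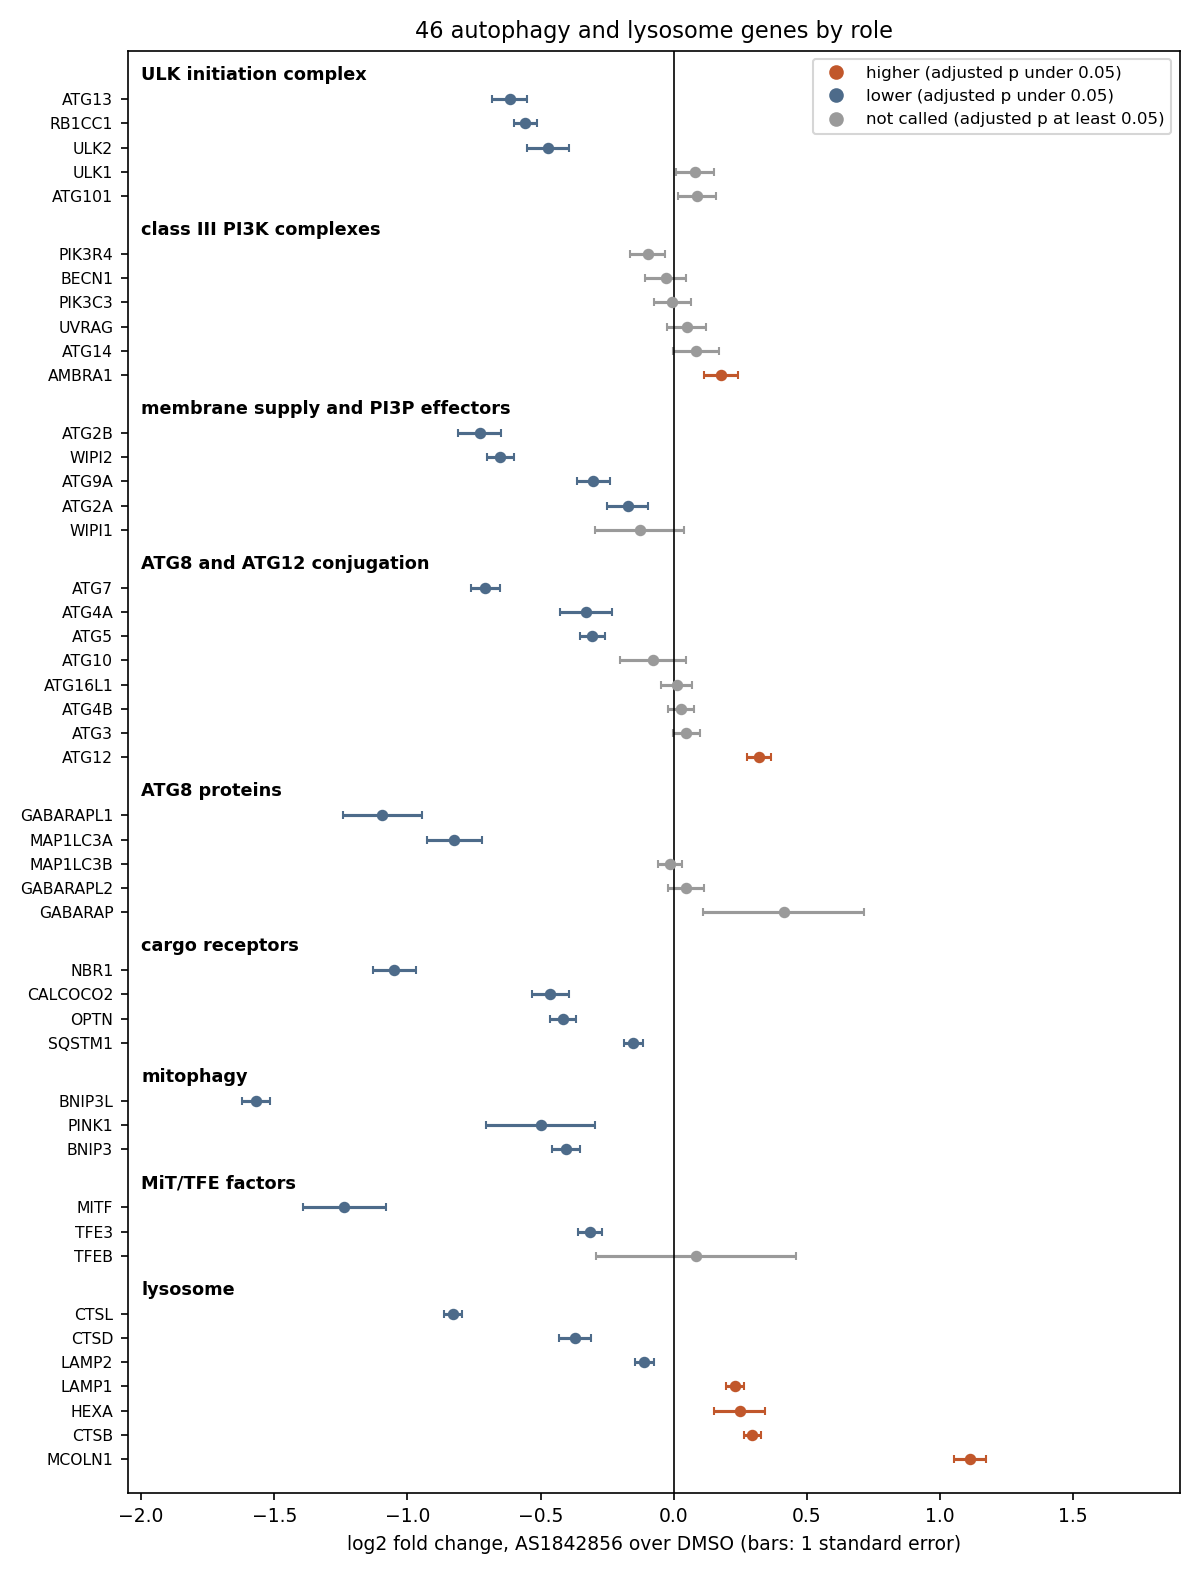
Log2 fold change, AS1842856 over DMSO, of the 46 members by role, with bars of 1 standard error (edgeR, 3 libraries per group). Colour marks members called higher or lower at an adjusted p under 0.05, and the values run from -1.57 for BNIP3L to 1.11 for MCOLN1.

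The ULK complex, which receives nutrient signals and starts autophagy, was lower in 3 of its 5 members (28.4% of all genes were lower). The scaffold ATG13 (ENSG00000175224, chromosome 11, 46617527 to 46674818 on GRCh38) had 46.8, 48.1 and 46.8 CPM in the DMSO libraries (A, B and C, the order used throughout) and 30.6, 32.3 and 29.3 with AS1842856, a log2 fold change of -0.62 (SE 0.06, adjusted p = 1.78e-17, edgeR). RB1CC1, also known as FIP200, the large scaffold on which the complex assembles, had 126.6, 128.1 and 133.9 CPM in DMSO and 87.6, 88.1 and 88.4 with AS1842856, a log2 fold change of -0.56 (SE 0.04, adjusted p = 1.55e-27, edgeR). The libraries of the groups stood well apart in both genes. Of the kinases themselves, ULK2 fell by 0.47 on the log2 scale (SE 0.08), from 31.2 to 22.5 CPM, while ULK1 was not called (log2 fold change 0.08, SE 0.07) and had overlapping libraries. ATG101, which stabilizes ATG13, was likewise not called, at 0.09 on the log2 scale.

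The class III PI3-kinase complexes, which make the lipid PI3P on the forming membrane, were the group with the fewest calls, 1 of 6 (56.0% of all genes were called). The catalytic subunit PIK3C3 (VPS34), its partner PIK3R4 (VPS15), BECN1, and the alternative subunits ATG14 and UVRAG had log2 fold changes between -0.10 and 0.08, and none was called. For BECN1, 4.68% of exonic bases overlap PSME3, transcribed the other way and counted at 23343 reads against 3024. AMBRA1, a regulator of both BECN1 and ULK1, had 34.5, 37.1 and 38.0 CPM in DMSO and 41.4, 40.0 and 42.5 with AS1842856. Its libraries did not overlap and its log2 fold change was 0.18 (SE 0.06, adjusted p = 0.0130, edgeR). The call for AMBRA1 was lost without DMSO replicate A (0.13, adjusted p = 0.113, edgeR) and without AS1842856 replicate C (0.16, adjusted p = 0.0609, edgeR).

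Among the proteins that read PI3P and feed lipid to the growing membrane, 4 of 5 members were lower (28.4% of all genes were). WIPI2, the PI3P-binding protein that recruits the conjugation machinery, had 95.1, 95.0 and 89.0 CPM in DMSO and 57.5, 61.8 and 58.2 with AS1842856, a log2 fold change of -0.65 (SE 0.05, adjusted p = 1.03e-28, edgeR). ATG2B, one of the paired bridge-like lipid transfer proteins, had 31.3, 29.9 and 31.0 CPM in DMSO and 18.8, 17.9 and 19.1 with AS1842856, a log2 fold change of -0.73 (SE 0.08, adjusted p = 4.19e-16, edgeR). Every AS1842856 library lay below every DMSO library in both. ATG9A, the lipid scramblase carried on vesicles, fell by 0.30 on the log2 scale (SE 0.06), and 38.8% of its exonic bases are shared with AC068946.2 on the same strand, which held 40 counts. ATG2A, the partner of ATG2B, was lower by a smaller step (log2 fold change -0.17, adjusted p = 0.0440, edgeR), and this call was lost when any single library but DMSO replicate A was left out, with adjusted p from 0.0610 to 0.186 (edgeR). WIPI1 was not called, at -0.13 on the log2 scale with an SE of 0.17, and shared 24.3% of its exonic bases with ARSG on the opposite strand.

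The conjugation system, which attaches ATG8 proteins to lipid, held 3 lower members, 1 higher and 4 that were not called. Of all genes, 28.4% were lower and 27.6% higher. ATG7, the E1-like enzyme that activates both ATG8 and ATG12, had 72.2, 79.2 and 71.1 CPM in DMSO and 44.6, 45.4 and 45.8 with AS1842856, a log2 fold change of -0.71 (SE 0.05, adjusted p = 2.13e-28, edgeR). The groups were separate in this gene, which shares 18.1% of its exonic bases with VGLL4 on the opposite strand. ATG5, the anchor to which ATG12 is joined, fell by 0.31 on the log2 scale, and the protease ATG4A fell by 0.33. ATG12 itself rose, from 89.8 to 112.0 CPM (log2 fold change 0.32, SE 0.05, adjusted p = 6.60e-11, edgeR), so that ATG12 and its partner ATG5 were called in opposite directions. The E2-like enzymes ATG3 and ATG10, the protease ATG4B and ATG16L1 had log2 fold changes between -0.08 and 0.05. In ATG10, although it was not called, each AS1842856 library lay below the lowest DMSO library at 9.05 CPM. Of its exonic bases, 6.86% overlap RPS23, transcribed the other way and counted at 61285 reads against 1016 for ATG10.

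The ATG8 proteins, which coat the membrane and bind cargo receptors, differed among themselves. GABARAPL1 (ENSG00000139112, chromosome 12, 10212458 to 10223130) had 9.06, 10.1 and 8.61 CPM in DMSO and 5.04, 4.69 and 3.20 with AS1842856, a log2 fold change of -1.09 (SE 0.15, adjusted p = 1.05e-11, edgeR). MAP1LC3A had 19.0, 17.3 and 18.6 CPM in DMSO and 9.42, 9.90 and 11.8 with AS1842856, a log2 fold change of -0.82 (SE 0.10, adjusted p = 5.48e-13, edgeR). Neither gene had overlapping groups. The 2 family members with the most counts, by contrast, kept overlapping libraries. MAP1LC3B, the LC3 form most used as an autophagosome marker, had 102.1, 102.0 and 100.3 CPM in DMSO and 103.3, 98.5 and 100.2 with AS1842856, a log2 fold change of -0.01 (SE 0.04). GABARAPL2 had 38.9, 34.7 and 36.2 CPM in DMSO and 42.7, 34.8 and 36.7 with AS1842856, a log2 fold change of 0.05 (SE 0.07). Both were close to the same level in the treated and the control cells, with the spread of the libraries covering the difference. GABARAP had only 22, 28 and 27 counts in the DMSO libraries and 29, 36 and 41 with AS1842856, and it was not called (log2 fold change 0.41, SE 0.30). The GABARAP count is uncertain, because 30.5% of its exonic bases are shared with AC120057.2 on the same strand, so that reads there fit both genes.

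On the scale of FPKM, which divides by gene length and so allows genes to be compared, MAP1LC3B made up 42.2% to 43.9% of the summed ATG8 family in DMSO and 47.6% to 49.5% with AS1842856. The share of MAP1LC3A fell from 22.5% to 23.9% in DMSO to between 13.1% and 16.9%. The family sum was 44.2 ± 0.97 FPKM in DMSO and 39.0 ± 1.70 with AS1842856 (SD, n = 3), with no overlap of the libraries. The shares and the sum take GABARAP at its deposited 0.63 FPKM in DMSO and 0.82 with AS1842856. That level is uncertain because of the exon overlap given above, and so are the shares and the sum to that extent. Of the family members, MAP1LC3A and GABARAPL1 were the ones that fell, from 10.3 to 5.85 and from 2.25 to 1.05 FPKM. The plot of stacked family levels shows the same split by library.

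**Figure D2:**
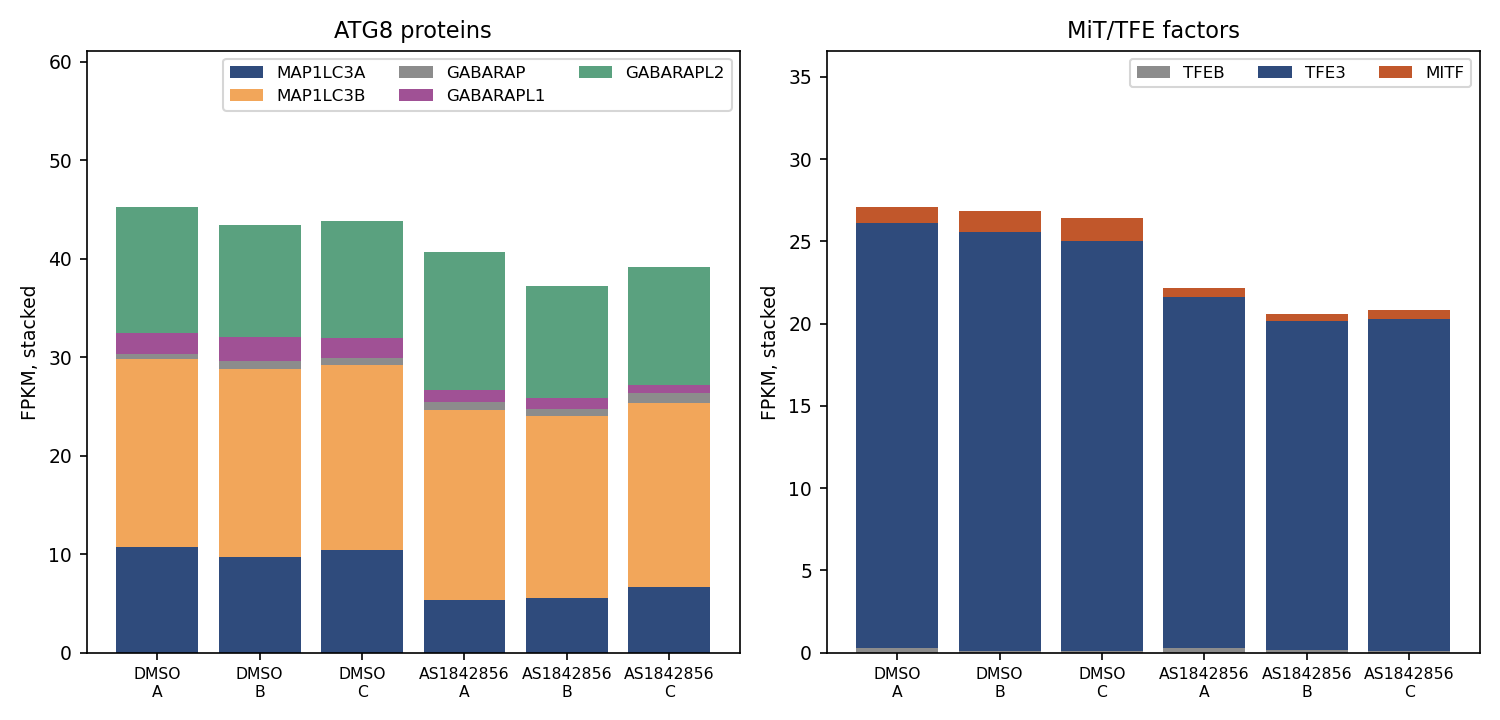
Stacked FPKM of the ATG8 proteins (left) and of the MiT/TFE factors (right) in each of the 6 libraries. The ATG8 sum was 43.4 to 45.3 in DMSO and 37.3 to 40.6 with AS1842856, and TFE3 made up at least 94.3% of the MiT/TFE sum in every library.

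Each of the 4 cargo receptors was lower (28.4% of all genes were). NBR1 (ENSG00000188554, chromosome 17, 43170481 to 43211689), a receptor for ubiquitin-tagged aggregates and peroxisomes, changed most, with 32.1, 34.0 and 34.7 CPM in DMSO and 18.2, 15.5 and 15.03 with AS1842856, a log2 fold change of -1.05 (SE 0.08, adjusted p = 6.40e-28, edgeR). Its groups were far apart, with the treated mean at 48.3% of the DMSO mean. CALCOCO2 (NDP52), a receptor for bacteria and mitochondria, fell by 0.46 on the log2 scale (SE 0.07), and OPTN, which acts in mitophagy with the kinase TBK1, fell by 0.42 (SE 0.05). SQSTM1, or p62, the most abundant of the 4 at 45.0 FPKM, was at 373.9, 352.1 and 367.6 CPM in DMSO and 325.5, 327.5 and 331.6 with AS1842856. The libraries of SQSTM1 did not overlap, although its log2 fold change was only -0.15 (SE 0.04, adjusted p = 7.18e-05, edgeR). On the opposite strand, 20.7% of its exonic bases overlap MRNIP, counted at 5789 reads against 39263 for SQSTM1. A further overlap of 1.37% is with MGAT4B, counted at 36284 reads.

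The 3 mitophagy members, which act in marking mitochondria for removal, were all lower (28.4% of all genes were) and included the largest change among the members. The separate list of other selective receptors and mitophagy genes, given below, had 7 higher and 4 lower of 17. BNIP3L, also known as NIX, an outer mitochondrial membrane receptor that binds ATG8 proteins (ENSG00000104765, chromosome 8, 26382898 to 26505636), had 108.4, 106.2 and 111.2 CPM in DMSO and 38.5, 36.9 and 34.5 with AS1842856. This was 33.7% of the DMSO level, a log2 fold change of -1.57 (SE 0.05, adjusted p = 1.49e-81, edgeR). The separation was many times the spread within either group. BNIP3, the close relative of BNIP3L, fell by less, by 0.40 on the log2 scale (SE 0.05), from 71.3 to 53.8 CPM. PINK1, the kinase that builds up on damaged mitochondria, was measured at 4.37, 4.17 and 3.12 CPM in DMSO and 2.34, 2.85 and 3.03 with AS1842856, a log2 fold change of -0.50 (SE 0.21, adjusted p = 0.0300, edgeR). The PINK1 libraries did not overlap but nearly met, and the call was lost without DMSO replicate A, DMSO replicate B or AS1842856 replicate A, with adjusted p of 0.156, 0.0777 and 0.114 (edgeR). The antisense gene PINK1-AS shares 39.4% of the exonic bases of PINK1 and held 103.2% as many counts, so reads of the pair could not be told apart if strand was not used in counting.

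**Figure D3:**
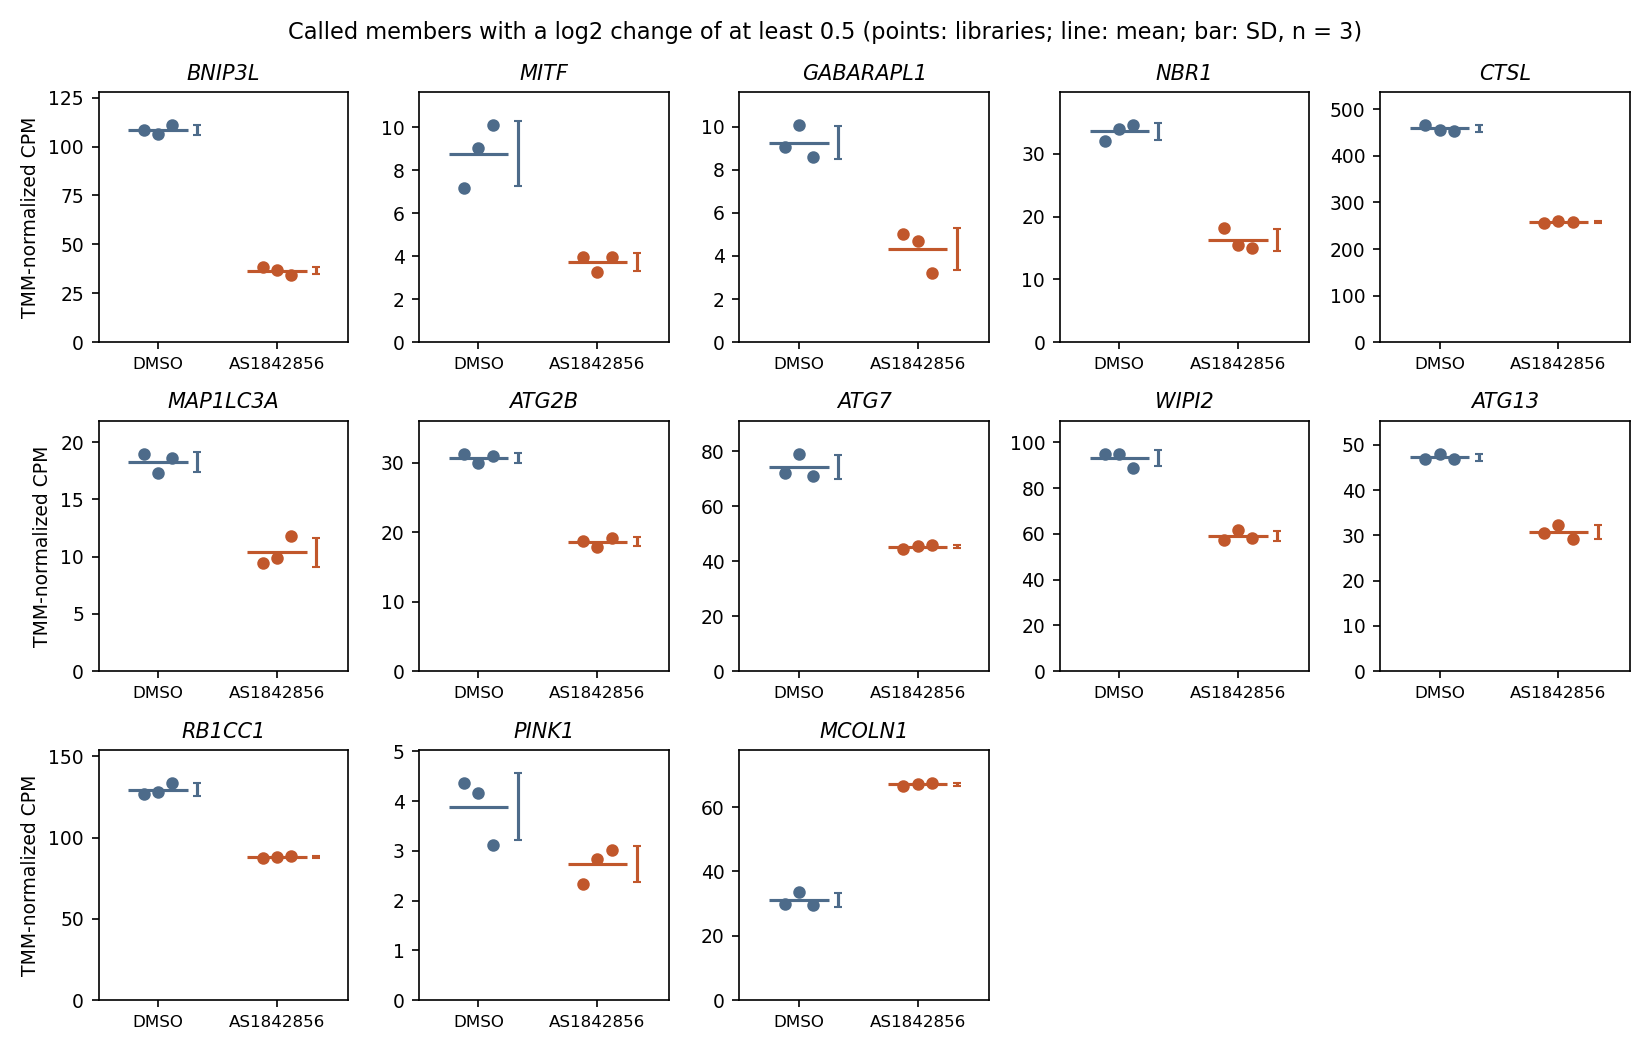
TMM-normalized CPM of the 13 called members whose log2 fold change was 0.5 or more in size, with each library as a point, the group mean as a line and the SD (n = 3) as a bar, each axis starting at 0. In all 13 the libraries of the groups were separate, and only MCOLN1 was higher with AS1842856.

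The MiT/TFE factors switch on lysosomal and autophagy genes when they enter the nucleus, a step that RNA levels do not show. MITF had 7.15, 9.05 and 10.1 CPM in DMSO and 3.96, 3.24 and 3.98 with AS1842856, a log2 fold change of -1.24 (SE 0.16, adjusted p = 3.92e-13, edgeR). TFE3 had 111.0, 110.0 and 107.4 CPM in DMSO and 91.7, 86.0 and 87.0 with AS1842856, a log2 fold change of -0.31 (SE 0.05, adjusted p = 1.98e-10, edgeR). Both were lower in each treated library than in any control library. TFEB was close to the limit of detection, with 38, 8 and 12 counts in DMSO and 28, 22 and 11 with AS1842856, so no difference was detectable at this depth (log2 fold change 0.08, SE 0.37). By FPKM, TFE3 was the main family member, with 94.3% to 95.2% of the family sum in DMSO and 96.2% to 97% with AS1842856. TFEC, the remaining relative, had no counts in any of the 6 libraries. The family sum was 26.8 ± 0.33 FPKM in DMSO and 21.2 ± 0.84 with AS1842856 (SD, n = 3), without overlap.

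All 7 lysosomal members were called, 4 higher and 3 lower. Of all genes, 56.0% were called, 27.6% higher and 28.4% lower. MCOLN1, the lysosomal calcium channel TRPML1 (ENSG00000090674, chromosome 19, 7522626 to 7534009), had 30.01, 33.7 and 29.6 CPM in DMSO and 66.5, 67.1 and 67.6 with AS1842856. It rose 2.16-fold, a log2 fold change of 1.11 (SE 0.06, adjusted p = 3.04e-47, edgeR). The treated libraries were close together and far above the controls. CTSL, the cysteine protease cathepsin L (ENSG00000135047, chromosome 9, 87725519 to 87731393), moved the other way, with 467.0, 454.9 and 454.3 CPM in DMSO and 255.5, 260.8 and 258.2 with AS1842856, a log2 fold change of -0.83 (SE 0.04, adjusted p = 6.20e-63, edgeR). The treated level of CTSL was 56.3% of the control level, with groups that did not overlap.

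The remaining lysosomal members changed by less. CTSB, cathepsin B, another cysteine protease and the most abundant member at 390.0 FPKM, rose by 0.29 on the log2 scale (SE 0.03), and it held 41.0% to 42.2% of all counts on the 46 members in DMSO and 48.9% to 49.99% with AS1842856. LAMP1, a heavily glycosylated protein of the lysosomal membrane, was higher (log2 fold change 0.23, SE 0.03, adjusted p = 4.82e-10, edgeR), from 682.4 to 800.7 CPM. Its relative LAMP2, which also serves chaperone-mediated autophagy, was lower (log2 fold change -0.11, SE 0.04, adjusted p = 0.00531, edgeR), and the call was lost without DMSO replicate B (-0.08, adjusted p = 0.0951, edgeR). CTSD, the aspartic protease cathepsin D, fell by 0.37 on the log2 scale (SE 0.06). The reads of CTSD are uncertain in part, since 41.7% of its exonic bases are shared with AC068580.4 on the same strand, which held 5 counts. HEXA, the alpha subunit of beta-hexosaminidase, was higher (log2 fold change 0.25, SE 0.10, adjusted p = 0.0217, edgeR), and its call was lost without DMSO replicate A (adjusted p = 0.135, edgeR) and without AS1842856 replicate C (adjusted p = 0.106, edgeR).

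The E-box that MiT/TFE factors read has the letters CACGTG, and its extended form in lysosomal promoters has TCACGTGA at its core. Both read the same on either strand. FOXO and other forkhead factors favour GTAAACA, which is TGTTTAC on the opposite strand. Promoters of 300 bases, 250 before the start and 50 after it, were taken from RefSeq on GRCh38.p14 and matched 38 of the 46 members. The E-box was present in 6 of these 38 (ATG3, ATG14, BNIP3, CTSD, LAMP1 and MCOLN1), against 8.78% of all 27305 genes with a promoter sequence (7.26% of 35116 promoters, as some genes have several). The extended core lay in 3 (ATG3, LAMP1 and MCOLN1), against 1.18% of all genes (0.980% of promoters), and each of its matches is also a match to the E-box. The forkhead letters lay in 2, CTSL and CALCOCO2, against 4.19% of all genes (3.42% of promoters). Of these genes, MCOLN1 and LAMP1 were higher, CTSD, BNIP3, CTSL and CALCOCO2 were lower, and ATG3 and ATG14 were not called. A match of letters describes the sequence and shows no binding.

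The stretches upstream of the RefSeq start that hold these letters are shown for the lysosomal members and for CALCOCO2, since they set the higher genes MCOLN1 and LAMP1 beside lower ones. Capitals mark the E-box in the first 3 and the forkhead letters in the last 2, each printed 5′ to 3′ on the strand of its gene. MCOLN1 is chr19:7522563-7522623 on the plus strand, LAMP1 chr13:113297027-113297236 on the plus strand, CTSD chr11:1763949-1763994 on the minus strand, CTSL chr9:87725947-87725993 on the plus strand and CALCOCO2 chr17:48830789-48830835 on the plus strand.
MCOLN1: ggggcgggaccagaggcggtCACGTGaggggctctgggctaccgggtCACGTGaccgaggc
LAMP1: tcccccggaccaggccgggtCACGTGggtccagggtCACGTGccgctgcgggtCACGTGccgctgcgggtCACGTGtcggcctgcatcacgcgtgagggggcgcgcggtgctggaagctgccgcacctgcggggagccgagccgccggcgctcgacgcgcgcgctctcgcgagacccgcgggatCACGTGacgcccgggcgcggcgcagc
CTSD: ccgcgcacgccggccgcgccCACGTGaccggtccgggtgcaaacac
CTSL: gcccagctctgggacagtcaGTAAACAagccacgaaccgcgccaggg
CALCOCO2: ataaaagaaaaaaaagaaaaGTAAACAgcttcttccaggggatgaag
The stretch of MCOLN1 holds 2 E-boxes within the last 61 bases before the start, both in the extended form. The printed stretch of LAMP1 holds 5, of which 1 is in the extended form, and its whole promoter holds 6 and 2, since a further match spans the start and is not printed. CTSD holds 1 E-box, which is not in the extended form. The RefSeq start of CTSD used here, at base 1763927, and its printed stretch lie inside the GENCODE gene, which runs from 1752752 to 1764573. The forkhead letters of CTSL lie 152 bases before the RefSeq start used here, at base 87726119, which is inside the GENCODE gene given above.

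Related members were set against each other within each library, which removes any effect of library size. In 9 of the 10 pairs compared, the log2 ratio of the counts of the pair did not overlap between the groups, and each of those 9 pairs holds a called gene. Among all genes taken singly 59.9% did not overlap. A ratio can separate through either of its genes, and the share over pairs of genes was not computed. The pairs were chosen with earlier results of these data known. With 3 libraries against 3, the exact two-sided permutation test gave p = 0.1 for each of the 9, the smallest p it allows, and 0.111 after adjustment over the 10 pairs, so none could pass 0.05. The largest shifts were in GABARAPL1 against GABARAPL2 (-1.18 on the log2 scale), BNIP3L against BNIP3 (-1.16) and CTSB against CTSL (1.12). BNIP3L outnumbered BNIP3 in counts in the DMSO libraries, at a log2 ratio of 0.61 ± 0.02 (SD, n = 3), and fell below it with AS1842856, at -0.56 ± 0.10. The ratio of CTSB to CTSL went from 2.51 ± 0.03 to 3.64 ± 0.04 on the log2 scale. ULK1 against ULK2, ATG2A against ATG2B and WIPI1 against WIPI2 each shifted by 0.55 or 0.56 in favour of the first. In ATG4A against ATG4B the groups overlapped (exact permutation p = 0.2).

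**Figure D4:**
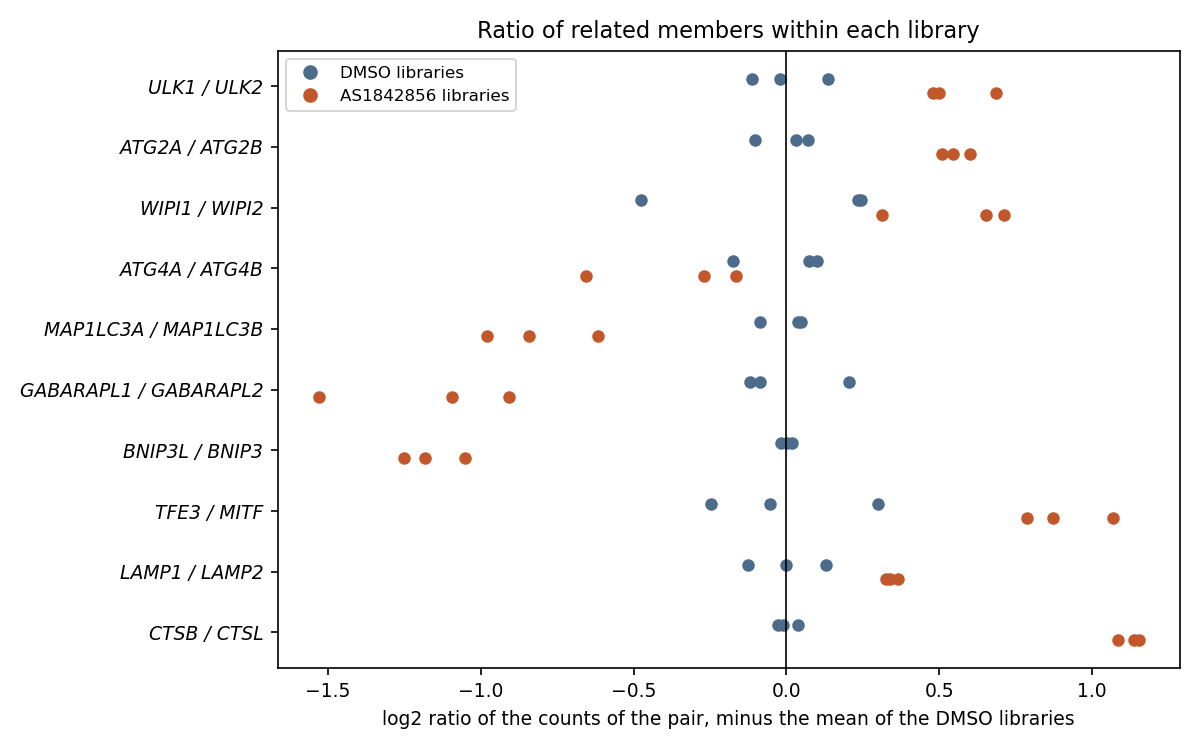
Log2 ratio of the counts of 10 pairs of related members in each library, with the mean of the DMSO libraries subtracted, so that points right of 0 mean more of the first gene. The AS1842856 libraries lie apart from the DMSO libraries in 9 pairs and meet them in ATG4A against ATG4B.

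A further 171 genes of the same pathways were listed by function, and 159 were tested. Of these, 68 were higher and 39 were lower (67.3% called, beside 56.0% of all genes), with a median log2 fold change of 0.10, whereas the members leaned to lower values. The proton pump of the lysosome, the V-ATPase, had 13 of 18 tested subunits higher and 3 lower (88.9% called), with a median of 0.29. Among its subunits ATP6V0C (log2 fold change 0.72) and ATP6V0B (0.56) had the largest called increases, and ATP6V0E2 (-0.59) and ATP6V0E1 (-0.14) fell. The ATP6V0C libraries overlapped, at 2.28, 4.04 and 2.53 CPM in DMSO and 3.96, 3.15 and 7.29 with AS1842856. Its call was lost without AS1842856 replicate C (0.29, adjusted p = 0.318, edgeR), DMSO replicate A (0.55, adjusted p = 0.162, edgeR) or DMSO replicate C (0.63, adjusted p = 0.164, edgeR). Other lysosomal hydrolases were divided, with 16 of 40 higher and 14 lower (75% called). Acid sphingomyelinase SMPD1 (1.23) and the sialidase NEU1 (0.71) were the most increased, and the protease CTSH (-1.05) and the iduronidase IDUA (-0.86) the most decreased on the log2 scale. Lysosomal membrane proteins and transporters had 11 of 24 higher and 6 lower (70.8% called). The channels MCOLN2 (1.06) and MCOLN3 (1.05), the relatives of MCOLN1, led the increases, so that all 3 members of the channel family were higher. SORT1 (-1.16), a sorting receptor, and the amino acid sensor SLC38A9 (-0.57) were the most decreased.

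**Figure D5:**
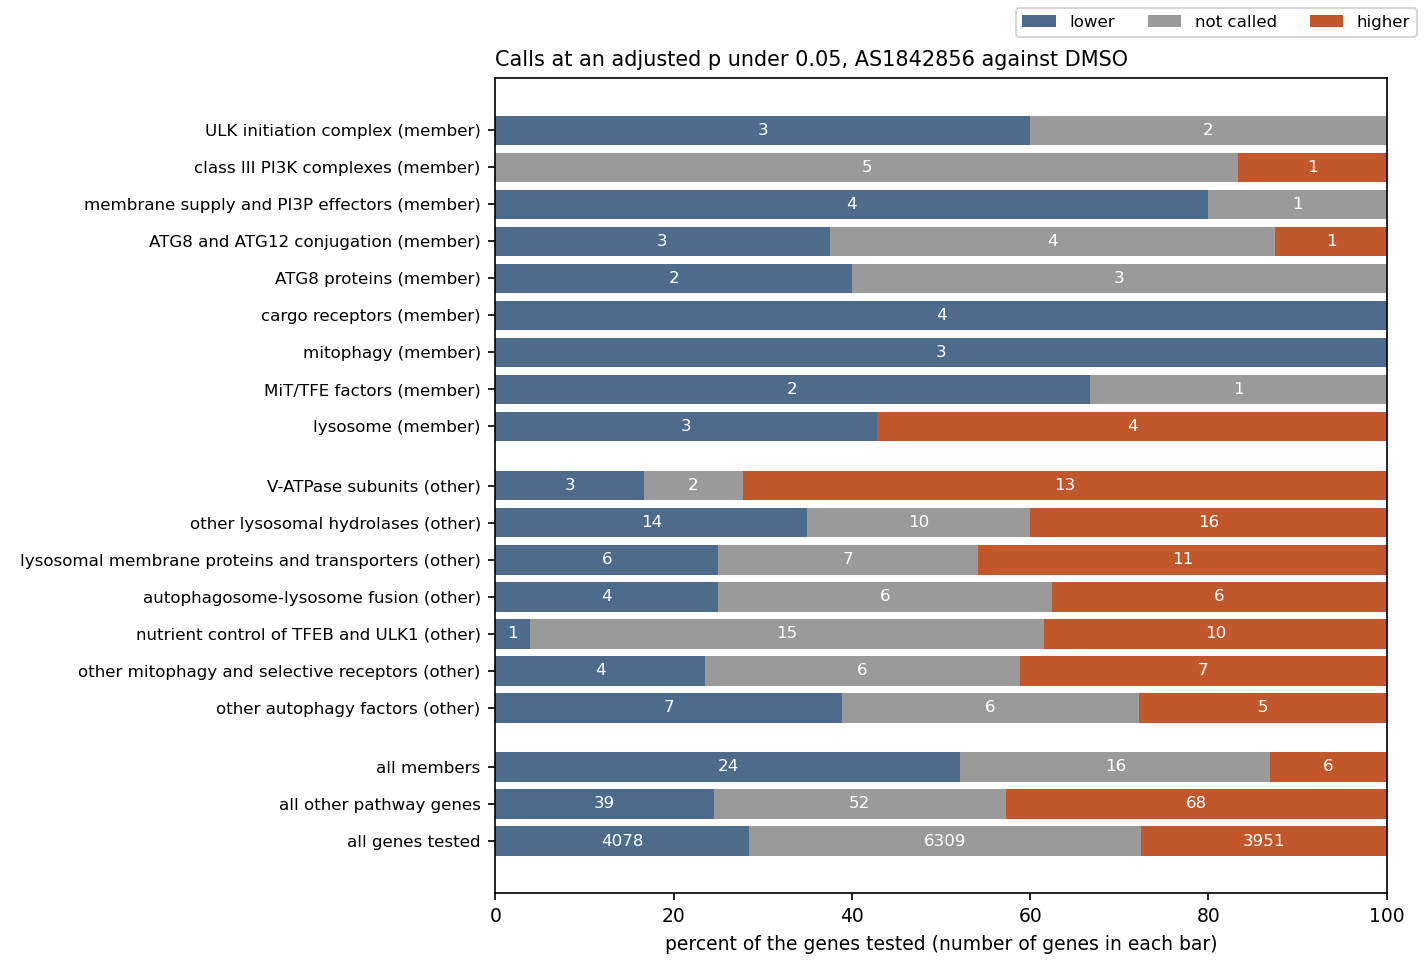
Percent of the tested genes in each group that were lower, not called or higher at an adjusted p under 0.05 (edgeR), with the number of genes written in each bar, for the role groups of the members, for the other pathway genes and for all genes. All 4 cargo receptors and all 3 mitophagy members were lower, while 13 of 18 V-ATPase subunits were higher. Of all genes, 28.4% were lower and 27.6% higher.

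Genes of autophagosome-lysosome fusion were 6 higher and 4 lower of 16 (62.5% called). Over all genes 56.0% were called, 27.6% higher and 28.4% lower, and the calls of the lists below are to be read beside these shares. VPS18 (0.38) and VPS33A (0.37), core subunits of the HOPS tether, rose most. Of the other HOPS subunits, VPS11 (0.33) and VPS41 (0.24) were higher, VPS16 (-0.39) was lower and VPS39 (-0.06) was not called. The tether EPG5 fell by 1.64 on the log2 scale, from 66.8 to 21.5 CPM. RILP, an adaptor of late endosomes, also fell (-0.81), with the call lost without DMSO replicate C (-0.69, adjusted p = 0.0532, edgeR). Among genes of the mTORC1 and AMPK pathways, which control TFEB and ULK1, 10 of 26 were higher and 1, RHEB (-0.49), was lower. The 42.3% called was below the share of all genes. RRAGD (0.92) and PRKAA2 (0.86), an AMPK catalytic subunit, had the largest called increases of that list. PRKAA2 was low, at 2.21 CPM in DMSO and 3.99 with AS1842856, and the other catalytic subunit, PRKAA1, was not called (0.09). RRAGD was low, with 8, 10 and 16 counts in DMSO and 19, 29 and 19 with AS1842856, and its change was 0.60 (adjusted p = 0.262, edgeR) without DMSO replicate A. Without any of the other libraries but DMSO replicate C its call was also lost, with adjusted p from 0.0611 to 0.131 (edgeR). Other selective receptors and mitophagy genes were 7 higher and 4 lower of 17 (64.7% called), with STBD1 (0.86) and PHB2 (0.47) the most increased. RETREG1 (-2.19) and CCPG1 (-0.999), receptors for endoplasmic reticulum, were the most decreased. Both were low, RETREG1 at 2.63 CPM in DMSO and 0.554 with AS1842856, and CCPG1 at 3.32 and 1.66. Of other such receptors in the list, SEC62 (0.18) was higher and TEX264 (0.16) was not called. Of 18 other autophagy factors (66.7% called), 5 were higher, led by TP53INP2 (0.92) and VMP1 (0.48), and 7 were lower, led by DRAM1 (-1.79) and DEPP1 (-1.70). DEPP1 is a known FOXO target gene, and DRAM1 is a known p53 target in the lysosomal membrane.

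Taking the lysosomal members with the V-ATPase, hydrolase and membrane lists, 68 genes had a promoter sequence. The extended core TCACGTGA was present in 8 of the 32 that were higher, in 0 of the 18 that were lower and in 3 of the 14 that were not called. Beside MCOLN1 and LAMP1, the 8 were ATP6V0D1, ATP6V1G1, CTSA, GAA, SLC36A1 and IGF2R, with log2 fold changes from 0.20 to 0.76. The shorter E-box was found in 13 of the 32, 4 of the 18 and 3 of the 14. The remaining 4 genes were not tested and held neither form. Over the 68 genes, the extended core was present in 16.2% and the E-box in 29.4%. Over all genes with a promoter sequence, the shares were 1.18% and 8.78%. The extended form is one known from lysosomal promoters, so its higher share among lysosomal genes is not a result of these data. The forkhead letters were found in 3 of the 68, CTSL, CTSF and SORT1, each of which was lower. That is 4.41% of the 68, close to the 4.19% of all genes. Of the other members and pathway genes with these letters, VAMP7 was higher and CALCOCO2, WDR45 and DEPP1 were lower.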

How the data were processed

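Total RNA of BT549 cells, in 6 libraries, was sequenced by a commercial provider, with base calls by CASAVA and mapping with STAR per the paper's methods, while the submitters' processing notes also name Bowtie 0.12.2 and GRCh38. The counting tool, annotation and use of strand are not given in the sources used here. The authors deposited raw, unnormalized counts per Ensembl gene and library. A second deposited set of tables, also made by the authors, gives FPKM per library, which is scaled by gene length and depth. Groups and replicate letters came from the labels. The labels do not say whether replicates were separate cultures, whereas the paper calls them biological replicates. If they were not, p-values measure only the spread between these libraries.

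All 58735 identifiers matched GENCODE release 29 (Ensembl 94, GRCh38), which gave symbols, positions and exon overlaps. Genes were kept by filterByExpr (minimum count 10, minimum total 15) in edgeR 4.0.16 (R 4.3.3), scaled by TMM and compared by glmQLFit (robust) and glmQLFTest with no block. The SE of a log2 fold change is |log2 fold change|/√F. The common biological coefficient of variation was 0.0374 at 15289500 to 22981832 counts per library. Alternatives were DESeq2 1.42.0, other scalings and filters, leaving out single libraries, a block on the replicate letter, an adjusted p under 0.01, and limma 3.58.1 on log2(FPKM + 1) and log2(FPKM + 0.1). The fits were first tested on simulated counts with known changes.

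Per-library values are given for called members with a log2 fold change of 0.5 or more in size, for the ATG8 and MiT/TFE families, and for the largest change in a role group without these, and of each other list the 2 largest called changes each way are named. SQSTM1 values and ATG10 levels were added after their values were seen. The members, lists, pairs and motifs were chosen with earlier results of these data known, and no test was made over a list. Promoter sequences are from RefSeq (GRCh38.p14). The members without one were RB1CC1, UVRAG, MAP1LC3A, BNIP3L, PINK1, LAMP2, CTSB and HEXA. Ratios of pairs used counts plus 0.5.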

Additional observations from a re-analysis of the deposited data

How the results depend on the processing

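The counts of called members stayed within 1.5 times the reported counts, at 4 to 6 higher and 21 to 24 lower, under all alternatives, and those of the other pathway genes, recomputed under the same alternatives by a choice made after seeing the data, at 56 to 68 higher and 31 to 40 lower. With the replicate letter as a block, 6 members were higher and 23 lower, and 7862 genes were called in all. Deviations from the group means of libraries with the same letter had correlations of -0.02 (A), 0.01 (B) and -0.04 (C). Between libraries of different letters they ran from -0.0171 to 0.0345, so no pairing by letter was detectable. Direction and call held under every alternative for 33 of 46 members. The calls of ATG2A, PINK1, HEXA, AMBRA1 and LAMP2 were lost under some alternatives, with adjusted p up to 0.186, 0.158, 0.241, 0.113 and 0.0951 (edgeR, DESeq2 or limma). Among members that were not called, the sign of the log2 fold change of ATG16L1 turned with no filter on low counts (-0.0025). With single libraries left out it ran from -0.016 to 0.051 for ATG16L1, -0.30 to 0.013 for WIPI1, -0.062 to 0.074 for PIK3C3, -0.33 to 0.86 for TFEB, -0.042 to 0.11 for GABARAPL2, -0.033 to 0.0035 for MAP1LC3B, -0.0028 to 0.075 for UVRAG and -0.045 to 0.094 for ATG4B. On the log2(FPKM + 1) scale, whose pseudocount shrinks changes of low genes, MITF changed by -0.54, GABARAPL1 by -0.67, ATG2B by -0.45, PINK1 by -0.20 and HEXA by 0.14. Among the named pathway genes, recomputed by the same later choice, the calls of RRAGD (0.13 on that scale), PRKAA2 (0.20), VPS33A (0.24), RILP (-0.37) and ATP6V0C (0.47) were lost under that scale with all genes kept, and those of RRAGD, RILP and ATP6V0C also under DESeq2. Depth limits TFEB, GABARAP and PINK1.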

Other observations

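Over all genes tested that had a promoter sequence, the shares of calls also varied with the letters present. Of 230 genes with TCACGTGA, 38.3% were higher and 23.5% lower with AS1842856, against 29.2% and 30.7% of 9919 genes without it. Of 354 genes with the forkhead letters, 23.7% were higher and 39.3% lower, against 29.6% and 30.3% of 9795 genes without them. These shares are descriptions across genes, which are not independent replicates, and base composition was not held constant.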
